A study of Sus scrofa with 15 samples.

Results

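The enzymes that build and degrade heme were followed in the liver of piglets given lipopolysaccharide (LPS, a cell wall component of Gram-negative bacteria) or saline. The list holds 9 genes, taken by name: ALAS1, ALAD, UROS, UROD, CPOX, PPOX and FECH of heme synthesis, and BLVRA and BLVRB, the biliverdin reductases. All 9 have a row among the 31908 Ensembl pig genes of the deposited count table, and all 9 were among the 12774 genes that passed a filter on low counts. The animals were male growing piglets of a Duroc x Large White x Landrace cross. The CON group had received sterile saline and the LPS group 80 μg/kg of LPS, both by the intraperitoneal route, and liver was taken 4 h later. Each group gave 3 input libraries, that is, fragmented polyadenylated RNA that was not enriched for N6-methyladenosine. The labels do not say which piglet gave which library, so p-values measure the spread between libraries.

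Heme is an iron-holding ring that serves as the cofactor of cytochromes, catalase and hemoglobin. Its synthesis begins and ends in mitochondria and passes through the cytosol in between, and the first step, made by ALAS1 in liver, sets the rate. Liver is the main site of heme synthesis outside the bone marrow, largely to supply cytochrome P450 enzymes, and it also clears old heme, which heme oxygenase opens to biliverdin and a biliverdin reductase then turns to bilirubin.

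Library depth ran from 4348478 to 19967417 counts, both ends being LPS libraries, and the lowest count of any heme enzyme in any library was 41 (PPOX in LPS replicate 1). Liver identity was clear from the hepatocyte marker ALB, which had 12381 to 38011 CPM (counts scaled to library size by the TMM method of edgeR) in every library. LPS replicate 2 stood nearer to the CON libraries than the other LPS libraries did, with correlations of log2 CPM across the 12774 tested genes of 0.928 to 0.949 with CON libraries against 0.844 to 0.906 for LPS replicates 1 and 3. Fold changes without it are given where it moved a value or a call most.

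None of the 9 heme enzymes was called between the groups by edgeR's quasi-likelihood test, at a Benjamini-Hochberg adjusted p below 0.05 over all tested genes and a fold change above 1.5. The same rule called 7 of 12774 genes, which is 0.0548%. The direction was uneven along the pathway. The log2 fold change of LPS against CON was below 0 in 6 enzymes (ALAD, CPOX, PPOX, FECH, BLVRA and BLVRB), as it was in 49.5% of all tested genes, and above 0 in 3 (ALAS1, UROS and UROD). The median over the 9 was -0.49, against 0.01 over all tested genes. At an unadjusted p below 0.05 edgeR gave 2 lower enzymes, BLVRA and BLVRB, and 0 higher ones, where 6.33% of tested genes were lower and 6.18% higher by that measure. In 3 enzymes (PPOX, BLVRA and BLVRB) all LPS libraries lay below all CON libraries. That pattern was seen in 9.80% of tested genes, and the opposite one, present in no heme enzyme, in 6.52%.

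**Figure D1:**
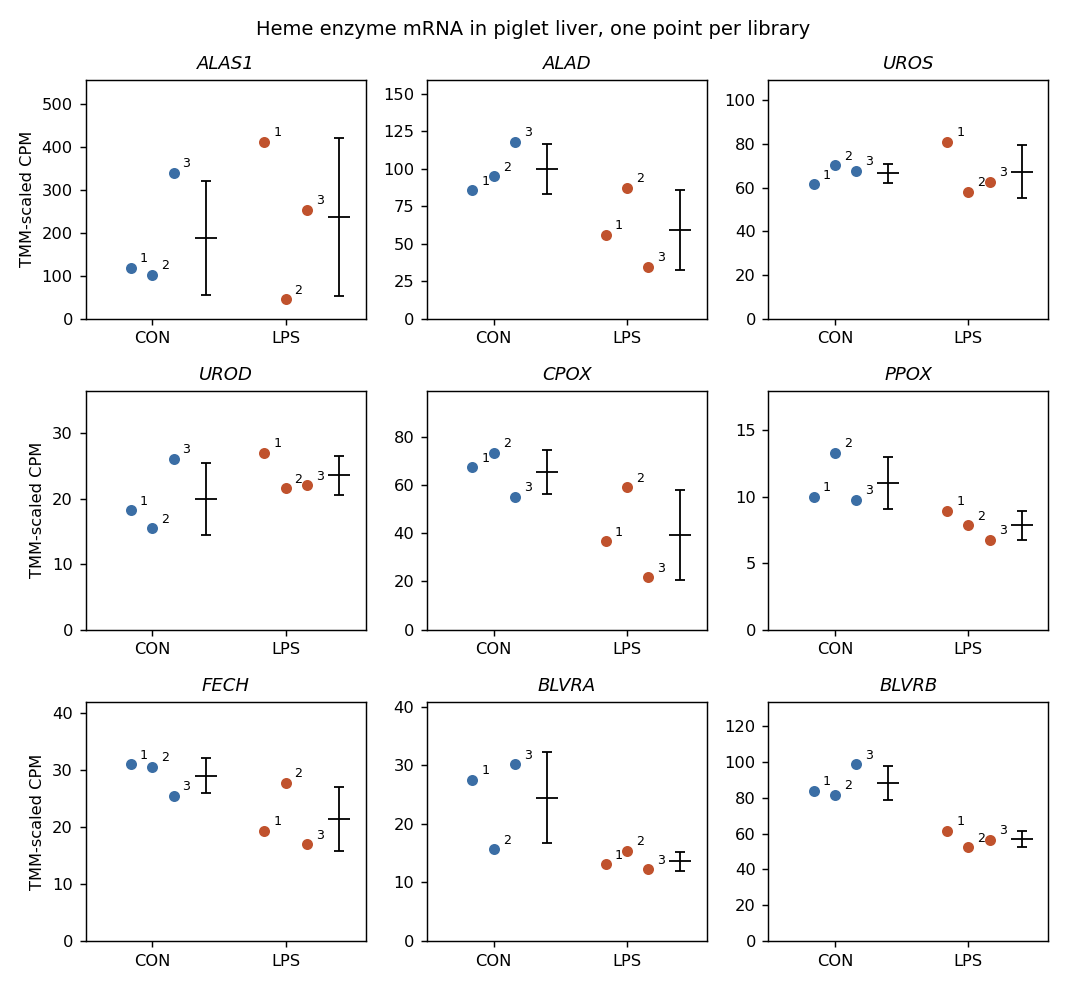
Level of each heme enzyme in TMM-scaled CPM (y axis, from 0) in the CON and LPS groups (x axis). Points are libraries numbered by replicate, and the bar with whiskers is the mean ± SD of 3 libraries. BLVRB is lower in every LPS library (52.4 to 61.5) than in every CON library (81.7 to 98.9), while ALAS1 runs from 102 to 340 in CON and from 45.3 to 412 in LPS.

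ALAS1 (5-aminolevulinate synthase, ENSSSCG00000011437, chromosome 13 from 34333113 to 34347590) joins glycine and succinyl-CoA in the mitochondrion, the rate-setting step of hepatic heme synthesis. Libraries are given here and below in the order of replicates 1, 2 and 3. It had 119, 102 and 340 CPM in CON libraries and 412, 45.3 and 254 CPM in LPS libraries. Both the highest and the lowest of the 6 libraries were LPS libraries, so the groups overlapped entirely. The log2 fold change was 0.34 (standard error, SE, 0.72, and adjusted p = 0.881 in edgeR), with a 95% interval from -1.29 to 1.98. The sign and size of the estimate turned on single libraries. It was -0.30 without LPS replicate 1 and 0.31 without LPS replicate 3, 0.83 without LPS replicate 2, and 0.10, 0.05 and 1.13 without CON replicate 1, 2 or 3. Within a group the highest library exceeded the lowest 3.34-fold in CON and 9.10-fold in LPS, whereas the corresponding ratio for the other 8 enzymes was 1.14 to 1.93 in CON and 1.17 to 2.70 in LPS. Its biological coefficient of variation, the spread between libraries of a group beyond counting error as edgeR estimates it, was 0.617. This lay at percentile 96.3 of the tested genes, while the other 8 enzymes lay between percentiles 4.20 and 48.9. In the RefSeq annotation of the pig assembly Sscrofa11.1 the ALAS1 locus is marked as a transcribed pseudogene and the other 8 as protein coding.

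The second step is made in the cytosol by ALAD (aminolevulinate dehydratase, ENSSSCG00000032787, chromosome 1 from 254012196 to 254027485), which condenses aminolevulinate to porphobilinogen. Its level was 85.8, 94.8 and 118 CPM in CON libraries and 56.0, 87.2 and 34.5 CPM in LPS libraries. LPS replicates 1 and 3 lay below all CON libraries and LPS replicate 2 within their range. The log2 fold change came to -0.75 (SE 0.38, 95% interval -1.59 to 0.09, adjusted p = 0.460 in edgeR). Without LPS replicate 2 it was -1.14 with an adjusted p of 0.0864 (edgeR), and without LPS replicate 3 it was -0.46.

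UROS closes the porphyrin ring in the cytosol and UROD trims its side chains, and their fold changes were the nearest to 0 of the 9 enzymes. UROS (uroporphyrinogen III synthase, ENSSSCG00000010742, chromosome 14 from 135055538 to 135131074) had 61.6, 70.3 and 67.8 CPM in CON libraries and 81.1, 58.1 and 62.7 CPM in LPS libraries. The LPS libraries thus lay on both sides of the CON range. Its fold change on the log2 scale was 0.02 (SE 0.29, adjusted p = 0.992 in edgeR), and the 95% interval from -0.63 to 0.66 leaves room for a change of about the 1.5-fold threshold in either direction. Its sign turned under total count scaling (-0.09) and upper-quartile scaling (-0.04). Its exons share 785 bases with EDRF1 on the opposite strand, a gene with 528 counts over the 6 libraries, and the sources used here do not say how the counting treated strand. For UROD (uroporphyrinogen decarboxylase, ENSSSCG00000003922, chromosome 6 from 166327247 to 166330614) CON libraries had 18.2, 15.5 and 26.1 CPM and LPS libraries 27.0, 21.6 and 22.1 CPM. The ranges overlapped, and the log2 fold change was 0.24 (SE 0.32, 95% interval -0.48 to 0.96, adjusted p = 0.794 in edgeR).

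The last steps return to the mitochondrion. CPOX (coproporphyrinogen oxidase, ENSSSCG00000011978, chromosome 13 from 160332436 to 160348232) had 67.4, 73.3 and 55.2 CPM in CON libraries and 36.8, 59.1 and 21.8 CPM in LPS libraries. As for ALAD, LPS replicates 1 and 3 lay below every CON library and LPS replicate 2 did not. Its log2 fold change stood at -0.74 (SE 0.38, 95% interval -1.59 to 0.12, adjusted p = 0.470 in edgeR). It was -1.16 without LPS replicate 2, where the edgeR adjusted p of 0.0812 was the lowest of any heme enzyme under any alternative, and -0.43 without LPS replicate 3. Without LPS replicate 2, edgeR called no heme enzyme lower and 3.45% of 13632 genes lower. At an unadjusted p below 0.05 that fit gave 3 lower enzymes, with 12.6% of tested genes lower by the same measure.

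PPOX (protoporphyrinogen oxidase, ENSSSCG00000006361, chromosome 4 from 89277117 to 89288902), the penultimate enzyme, had 10, 13.3 and 9.79 CPM in CON libraries and 8.94, 7.85 and 6.76 CPM in LPS libraries. All LPS libraries lay below all CON libraries, by less than 1 CPM at the nearest pair. On the log2 scale LPS differed from CON by -0.49 (SE 0.34, 95% interval -1.24 to 0.26, adjusted p = 0.583 in edgeR). FECH (ferrochelatase, ENSSSCG00000004541, chromosome 1 from 106854002 to 106898418), which inserts the iron, had 31.1, 30.6 and 25.5 CPM in CON libraries and 19.4, 27.8 and 17.0 CPM in LPS libraries. LPS replicate 2 again lay within the CON range and the other LPS libraries below it. The log2 fold change amounted to -0.44 (SE 0.31, 95% interval -1.15 to 0.26, adjusted p = 0.603 in edgeR), and -0.68 without LPS replicate 2.

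The biliverdin reductases had the lowest unadjusted p-values of the 9 genes. BLVRA (ENSSSCG00000016756, chromosome 18 from 51121946 to 51185437), which reduces the main adult form of biliverdin to bilirubin, had 27.5, 15.6 and 30.2 CPM in CON libraries and 13.1, 15.4 and 12.2 CPM in LPS libraries. The groups did not overlap, although CON replicate 2 and LPS replicate 2 were almost level. BLVRA had a log2 fold change of -0.86 (SE 0.35, 95% interval -1.63 to -0.08, unadjusted p = 0.0332 and adjusted p = 0.356 in edgeR). BLVRB (ENSSSCG00000021067, chromosome 6 from 48715216 to 48728414), which reduces fetal biliverdin and flavins and is abundant in red blood cells, had 84.0, 81.7 and 98.9 CPM in CON libraries and 61.5, 52.4 and 56.5 CPM in LPS libraries. Here LPS replicate 2 was the lowest library, and the gap between the groups was wider than either group's own range. BLVRB had a log2 fold change of -0.64 (SE 0.28, 95% interval -1.26 to -0.01, unadjusted p = 0.0469 and adjusted p = 0.391 in edgeR). The fold change stayed between -0.69 and -0.52 with any single library left out, but its unadjusted edgeR p was then 0.0638 to 0.17. With all 6 libraries that p was above 0.05 in edgeR with RLE scaling (0.0636) and in DESeq2 (0.0678). It was below 0.05 in limma-voom (0.0404) and in edgeR with upper-quartile scaling (0.0325). BLVRB had the lowest coefficient of variation of the 9 (0.296, percentile 4.20). With CON replicate 1, CON replicate 3, LPS replicate 1 or LPS replicate 3 left out, 0 of the 9 enzymes had an unadjusted edgeR p below 0.05.

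**Figure D2:**
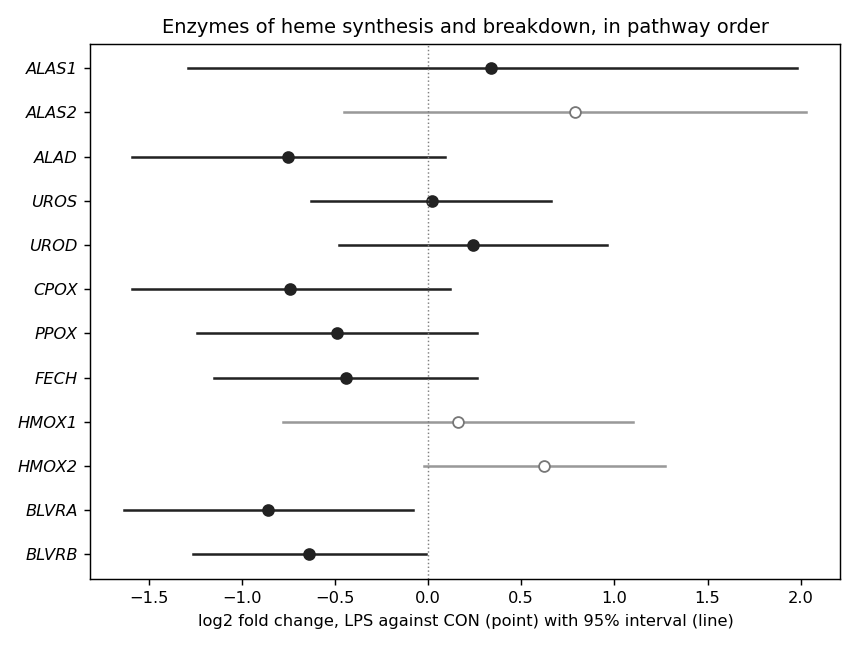
Log2 fold change of LPS against CON (x axis, point) with its 95% interval (line) for enzymes of the pathway (y axis, in pathway order). Filled points are the 9 heme enzymes and open points are ALAS2, HMOX1 and HMOX2. The intervals of BLVRA (-1.63 to -0.08) and BLVRB (-1.26 to -0.01) are the 2 that do not reach 0, before any adjustment for the number of genes.

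Read across the libraries, the enzymes did not move as one block. The level of each enzyme relative to its CON mean had a median over the 9 of -0.51, -0.19 and -0.65 on the log2 scale in LPS replicates 1, 2 and 3, and of -0.09, -0.06 and 0.17 in CON libraries. In LPS replicate 3 ALAD and CPOX were at -1.50 and -1.55 while ALAS1 was at 0.66. In LPS replicate 2 ALAD and CPOX were at -0.18 and -0.13 while ALAS1 was at -1.81. ALAS1 therefore stood above its CON mean in the LPS libraries where ALAD and CPOX stood lowest. BLVRA and BLVRB, in contrast, lay between -0.92 and -0.51 in every LPS library.

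**Figure D3:**
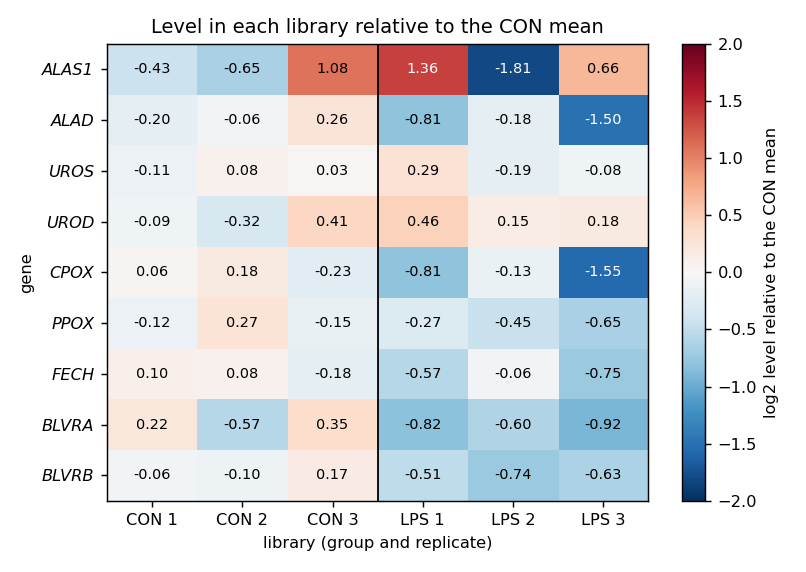
Level of each heme enzyme (rows) in each library (columns), as the log2 difference from the gene's mean over the CON libraries (colour and printed value). LPS replicate 2 has the lowest ALAS1 value (-1.81) but ALAD, CPOX and FECH values near 0 (-0.18, -0.13 and -0.06), and BLVRA and BLVRB are below 0 in all LPS libraries.

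Ratios between enzymes within a library do not depend on how libraries are scaled, and 3 were compared. The log2 ratio of ALAS1 to FECH counts, the first step against the last, was 1.94, 1.73 and 3.73 in CON libraries and 4.4, 0.70 and 3.90 in LPS libraries. That of ALAS1 to ALAD, the first step against the second, was 0.47, 0.10 and 1.53 in CON libraries and 2.88, -0.94 and 2.88 in LPS libraries. In both ratios LPS replicates 1 and 3 were the highest libraries and LPS replicate 2 the lowest. The differences between group means were 0.53 and 0.90, with exact two-sided permutation p of 0.8 and 0.6. Both differences turned on single libraries. That of ALAS1 to FECH was 1.68 without LPS replicate 2, 1.17 without CON replicate 3, 0.27 without CON replicate 1, 0.17 without CON replicate 2, 0.09 without LPS replicate 3 and -0.17 without LPS replicate 1. That of ALAS1 to ALAD was 2.18 without LPS replicate 2, 0.27 without LPS replicate 1 or 3, and 0.79, 0.60 and 1.32 without CON replicate 1, 2 or 3. The log2 ratio of BLVRA to BLVRB was -1.90 ± 0.42 in CON and -2.07 ± 0.26 in LPS (mean ± SD, n = 3 per group), a difference of -0.17 that was smaller than the spread between libraries (exact permutation p = 0.8) and ran from -0.41 without CON replicate 2 to -0.02 without CON replicate 1. The Benjamini-Hochberg adjusted value over the 3 ratios was 0.8 for each, and 3 libraries against 3 cannot give a two-sided p below 0.1 in such a test.

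**Figure D4:**
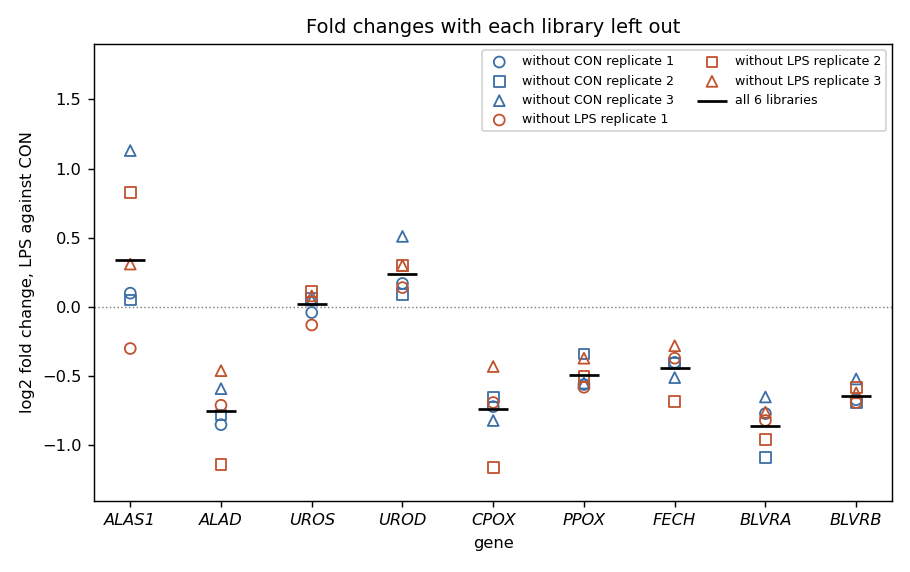
Log2 fold change of LPS against CON (y axis) for each heme enzyme (x axis) with all 6 libraries (black bar) and with each library left out (open symbols, blue for CON and orange for LPS). ALAS1 spans -0.30 to 1.13, ALAD -1.14 to -0.46 and CPOX -1.16 to -0.43, while BLVRB stays between -0.69 and -0.52.

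Levels of different genes were compared per kilobase of exon (CPM divided by the length in the deposited table). In the CON group ALAS1 (81.9 ± 58.2 CPM per kilobase, mean ± SD, n = 3) and BLVRB (78.7 ± 8.32) were the most abundant, and their ranges overlapped. Then came ALAD (22.1 ± 3.68), UROD (16 ± 4.44), CPOX (12.9 ± 1.83) and BLVRA (10.6 ± 3.37), each overlapping the next in range. UROS (5.60 ± 0.378) lay below BLVRA and above FECH (2.84 ± 0.303) and PPOX (2.84 ± 0.504) without overlap, and FECH and PPOX could not be ordered. In the LPS group the order was the same except that UROD (19.0 ± 2.42 CPM per kilobase) stood above ALAD (13.2 ± 5.89), with overlapping ranges. The mRNA of PPOX and FECH, the last synthesis steps, was thus scarcer per length than that of ALAS1, the first, in both groups. The order of other enzymes rests on the exon lengths, which ran from 1120 bases (BLVRB) and 1242 (UROD) to 10225 (FECH) and 11894 (UROS). In mean CPM of the CON group, not divided by length, UROS (66.6) and FECH (29.1) stood above BLVRA (24.4) and UROD (19.9).

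By the distance between centred log2 CPM profiles over the 6 libraries, the genes most like ALAS1 among 8612 candidates were PPL (periplakin, a cytoskeletal linker; root mean square distance 0.36), IRF7 (an interferon regulatory factor; 0.38) and ISG12(A) (an interferon-inducible gene; 0.47). Each had its lowest level in LPS replicate 2 and higher levels in CON replicate 3 than in the other CON libraries. PPL, for example, had 148, 131 and 312 CPM in CON libraries and 465, 94.6 and 294 CPM in LPS libraries. No other heme enzyme was close to ALAS1, the nearest being UROD at rank 1081 (distance 0.96).

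Among other enzymes of the pathway, ALAS2, HMOX1 and HMOX2 were tested and edgeR called 0 of these 3, with 0 at an unadjusted p below 0.05. HMOX2, the constitutive heme oxygenase, had 93.5, 108 and 109 CPM in CON libraries and 158, 141 and 178 CPM in LPS libraries, without overlap (log2 fold change 0.62, SE 0.29, adjusted p = 0.415 in edgeR). All LPS libraries lay above all CON libraries in 6.52% of tested genes. HMOX1, the stress-inducible heme oxygenase, had 339, 301 and 321 CPM in CON libraries and 193, 284 and 599 CPM in LPS libraries, so that the LPS libraries lay on both sides of a narrow CON range (0.16, SE 0.42, adjusted p = 0.906 in edgeR, and -0.07 under total count scaling). Leaving out LPS replicate 3 gave -0.41. ALAS2, the erythroid counterpart of ALAS1, had 16.2, 17.0 and 34.5 CPM in CON libraries and 30.7, 14.4 and 71.8 CPM in LPS libraries (0.79, SE 0.55, adjusted p = 0.595 in edgeR). Without LPS replicate 3 it had a log2 fold change of 0.01, and 1.27 or 1.19 without CON replicate 3 or LPS replicate 2.

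Beside these values stand shifts in the markers of other cells. The summed level of the 13 red blood cell genes with a row was 93.9 to 120 CPM in CON and 122 to 387 CPM in LPS, with HBB at 52.5 to 60.0 CPM in CON and at 192, 72.6 and 246 CPM in LPS replicates 1, 2 and 3. Of those, 5 passed the filter and all 5 had a log2 fold change above 0. HBB (1.59) was called higher by DESeq2, by edgeR's likelihood ratio test, without the filter and without LPS replicate 2. The shares called higher there were 1.85%, 203 of 12774 genes, 2.28% and 3.76%. Neutrophil genes were above 0 in 6 of 6 tested, and edgeR's quasi-likelihood test on all 6 libraries called 1 of them. That test called 0.0548% of all tested genes, and 49.5% of tested genes had a log2 fold change below 0. The called gene, S100A8, had 0.312 to 0.396 CPM in CON and 5.07 to 25.7 CPM in LPS, and LTF had at most 0.989 CPM in CON. Both passed the filter through their LPS libraries, which favoured a change above 0 for them. S100A12 (0.781 CPM in CON replicate 2) and MMP9 (0.983 CPM in CON replicate 1) also needed LPS libraries to pass. The 7 neutrophil genes with a row summed to 20.8 to 31.3 CPM in CON and 87.7 to 325 CPM in LPS, and 11 of 11 Kupffer cell and macrophage genes had a log2 fold change below 0 (median -0.48, summed level 2011 to 3261 CPM in CON and 1376 to 2316 in LPS). The 8 hepatocyte genes summed to 58292 to 75484 CPM in CON and 36757 to 71159 CPM in LPS, with log2 fold changes above 0 in 3 and below 0 in 5 (median -0.36). The 3 above 0 were HNF4A (0.61), SERPINA1 (0.23) and APOA1 (0.02). The SERPINA1 row held only 1.23 to 7.2 CPM in any library. The lowest log2 fold change was that of the receptor ASGR1 (-1.03, adjusted p = 0.257 in edgeR). The 5 cholangiocyte and endothelial genes summed to 92.4 to 317 CPM in CON and 91.4 to 184 CPM in LPS, with 3 of 5 above 0. The highest CON sum included CLEC4G at 260 CPM in CON replicate 3. KRT7 (1.61), EPCAM (1.42) and LYVE1 (1.16) were higher in every LPS library than in every CON library. That pattern was seen in 6.52% of tested genes. CLEC4G (-0.77) and PECAM1 (-0.22) were below 0. EPCAM had at most 2.14 CPM in CON and passed the filter through its LPS libraries, which favoured a change above 0. In no list was a gene with a row at 0 in all libraries. The part of these shifts in the heme enzyme values was not tested, and in bulk tissue fewer cells of a type and less RNA per cell cannot be told apart.

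Around the enzymes, 6 further lists of neighbouring genes were examined. The main edgeR fit (quasi-likelihood test with the filter, all 6 libraries) called 0 members of any of them. Other fits called some members, as given below. In the main fit 6.33% of all tested genes were lower and 6.18% higher at an unadjusted p below 0.05. All LPS libraries lay below all CON libraries in 9.80% of tested genes and above them in 6.52%. Among 16 tested carriers of heme and porphyrins, 5 had a log2 fold change above 0 and 11 below (median -0.28), with 0 at an unadjusted p below 0.05. The lowest p-values belonged to TSPO (0.76), a porphyrin-binding outer mitochondrial membrane protein, and ABCB6 (-1.06), FLVCR2 (-0.45) and SLC25A38 (0.64), the mitochondrial glycine carrier for the first step. ABCB6 was at -1.81 without LPS replicate 2, and SLC25A38 at 0.23 without LPS replicate 3 and 0.39 without CON replicate 1. Of 6 tested genes for mitochondrial iron and iron-sulfur supply, 5 were below 0 and 1 above (median -0.48). GLRX5, a glutaredoxin for iron-sulfur clusters, which FECH carries, was the only one with an unadjusted p below 0.05. Its level was 84.2, 103 and 107 CPM in CON libraries and 66.5, 61.5 and 57.2 CPM in LPS libraries, a log2 fold change of -0.67 (SE 0.28, adjusted p = 0.376 in edgeR). ISCU (-0.54) and NFS1 (-0.43) also lay lower in every LPS library than in every CON library, and SLC25A28, a mitochondrial iron importer, had a log2 fold change of 0.82 with overlapping groups, and of 0.25 without LPS replicate 3.

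The 7 tested genes that supply succinyl-CoA and glycine gave 4 log2 fold changes above 0 and 3 below (median 0.10), with 1 gene at an unadjusted p below 0.05. Of all tested genes, 6.18% were higher and 6.33% lower at that p, and in 6.52% all LPS libraries lay above all CON libraries. OGDH, the dehydrogenase that forms succinyl-CoA, had 205, 309 and 341 CPM in CON libraries and 683, 493 and 614 CPM in LPS libraries, without overlap (1.07, SE 0.33, unadjusted p = 0.00929 and adjusted p = 0.247 in edgeR). SUCLA2 (0.70), SUCLG2 (-0.68) and SHMT2 (-0.58) followed. The 14 tested regulators had a median of 0.03, with 8 above 0 and 6 below, and an unadjusted p below 0.05 in 1 of each. NR1I2, the xenobiotic receptor that induces ALAS1, had a log2 fold change of -1.33 (SE 0.52, adjusted p = 0.347 in edgeR), with 67.7, 54.7 and 79.7 CPM in CON libraries and 14.8, 52.7 and 12.8 CPM in LPS libraries. Without LPS replicate 2 it was -2.29 and called lower, and edgeR without the filter on low counts also called it. NR1D1, a heme-binding clock repressor, had a log2 fold change of 1.5 at low levels. It had 1.7, 2.5 and 1.29 CPM in CON libraries and 2.18, 6.71 and 6.28 CPM in LPS libraries, with overlap. PPARGC1A, a coactivator of ALAS1 in fasting, had a fold change of 1.23 on the log2 scale. That value rested on 75.3 CPM in LPS replicate 3 against 12.4 to 19.1 CPM elsewhere (0.10 without that library). CLPX, a mitochondrial unfoldase that acts on ALAS1 protein, had a log2 fold change of -0.73.

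Downstream of heme, 3 of 8 listed genes for bilirubin handling were tested. UGT1A1, SLCO1B1, SLCO1B3, GSTA1 and GSTA2 had no row under these symbols, so the list stands for ABCC3, SLCO2B1 and ABCC2 only. All 3 were below 0 (median -1.36), 2 of them at an unadjusted p below 0.05. Of all tested genes, 6.33% were lower and 6.18% higher at that p, and in 9.80% all LPS libraries lay below all CON libraries. ABCC3, an exporter at the sinusoidal membrane, had 64.3, 56.4 and 71.6 CPM in CON libraries and 19.2, 27.8 and 27.7 CPM in LPS libraries, without overlap (-1.36, SE 0.30, unadjusted p = 0.00113 and adjusted p = 0.133 in edgeR). SLCO2B1, an uptake carrier, had -1.36 and ABCC2, the canalicular exporter, -1.19. Without LPS replicate 2 ABCC2 was at -2.24 and called lower, and without LPS replicate 3 SLCO2B1 was at -0.87 and ABCC2 at -0.79. Among 17 tested enzymes that use heme, 10 were below 0 and 7 above (median -0.21), with 4 lower and 1 higher at an unadjusted p below 0.05. CAT, the peroxisomal catalase, had 1266, 1623 and 1295 CPM in CON libraries and 117, 586 and 425 CPM in LPS libraries (-1.89, SE 0.52, adjusted p = 0.218 in edgeR). CYB5A, the membrane cytochrome b5, had a log2 fold change of -1.35 (SE 0.31, adjusted p = 0.147 in edgeR), with 321 to 476 CPM in CON and 143 to 155 in LPS. CYP4V2 had one of -1.70 and CYCS, cytochrome c, one of 2.59 with overlapping groups. CYCS was at 1.21 without LPS replicate 3. ABCC3, CAT and CYB5A were called lower by DESeq2, by edgeR's likelihood ratio test, by edgeR without the filter on low counts and by edgeR without LPS replicate 2, whereas no heme enzyme was called under any of these. The shares of genes called lower under these 4 fits were 0.951% of the genes to which DESeq2 gave an adjusted p, 1.19%, 1.48% and 3.45%. Other list members were called in some of them. The fit without the filter also called NR1I2, SLCO2B1 and CYP4V2 lower and CYCS and IDO1 higher, where 2.28% of genes were called higher. DESeq2 called CYCS higher, as it did 1.85% of genes. Without LPS replicate 2, edgeR also called NR1I2, ABCC2, CYP4V2 and SLC46A1 lower and CYCS higher, where 3.76% of genes were called higher. IDO1 and SLC46A1 were picked out here after their calls were seen.

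**Figure D5:**
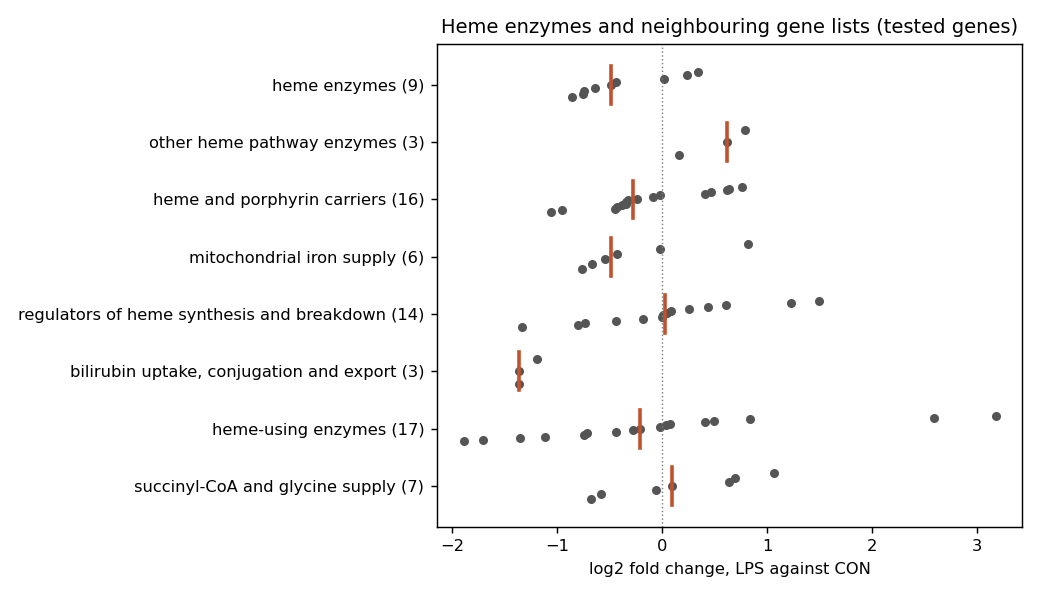
Log2 fold change of LPS against CON (x axis) of each tested gene (grey points) in the heme enzyme list and 7 neighbouring lists (y axis, number of tested genes in brackets), with the list median as an orange bar. Medians run from -1.36 for the 3 tested genes of bilirubin handling to 0.62 for ALAS2, HMOX1 and HMOX2, and the heme enzymes are at -0.49. Without LPS replicate 3 these medians are -0.87, 0.01 and -0.37.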

How the data were processed

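Input RNA libraries of the CON and LPS groups (n = 3 each) were compared. The authors' file holds raw, unnormalized counts as deposited, 1 row for each of 31908 Ensembl pig genes. The submitters' processing notes name cutadapt 1.9.3 and HISAT2. The counting program, its treatment of strand and of reads shared between genes, and the pig build were not given in the sources used here. Gene spans overlapped those of the same symbol in RefSeq Sscrofa11.1 for 99.9% of 13672 symbols, so the coordinates, copied from the deposited table, fit that assembly. CON replicates 1 and 2 have 2 label entries each and 1 column each. Of the library columns, 0 stayed unmapped. A gene name table paired 15029 rows with symbols. The immunoprecipitated libraries and sequences of the genes were not analysed here, and 1 item of a neighbouring list is not reported here.

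The fit used edgeR 4.0.16 under R 4.3.3 (filterByExpr with a minimum count of 10, TMM scaling, robust dispersions, glmQLFit and glmQLFTest) over all genes, with Benjamini-Hochberg adjustment. Genes with adjusted p below 0.05 and fold change above 1.5 were called. The paper states an unpaired two-sided test at 0.05 for all data and none specific to RNA-seq. Standard errors (SE) were derived from the log2 fold change and its F statistic (absolute change over root F), and 95% intervals use the t distribution with the total degrees of freedom of the fit. Ratios used counts plus 0.5, deviations log2 of CPM plus 0.5. The code was tested on simulated data.

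The 9 enzymes and all gene lists were chosen with earlier results of these data known. Of each neighbouring list, up to 4 tested genes with the lowest unadjusted p are named, along with the 3 genes most like ALAS1 (mean of at least 5 CPM). The markers ALB, ASGR1, HBB, S100A8, LTF, HNF4A, SERPINA1 and APOA1 and the neighbour EDRF1 were chosen after their values were seen. So were S100A12, MMP9, KRT7, EPCAM, LYVE1, CLEC4G and PECAM1. Alternatives were RLE, upper-quartile and total count scaling, no filter, a stricter filter (10 counts or more in every library), edgeR's likelihood ratio test, limma-voom (limma 3.58.1), DESeq2 1.42.0, the replicate number as a block, each library left out, and fold thresholds of 1 and 2. Same-numbered libraries did not deviate together (correlations of deviations -0.256, 0.225 and 0.026), so the numbers were not taken to pair libraries.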

Additional observations from a re-analysis of the deposited data

How the results depend on the processing

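The number of heme enzymes called was 0 in each direction under all alternatives run. Their median log2 fold change stayed between -0.60 and -0.37. It was -0.60 under total count scaling, which moved the median of all tested genes from 0.01 to -0.12. ALAD, CPOX, PPOX, FECH, BLVRA and BLVRB kept a log2 fold change below 0 and UROD one above 0 throughout. UROS, at 0.02, was -0.09 under total count scaling, -0.04 under upper-quartile scaling, -0.01 without the filter and -0.02 with 10 counts in every library, and lay between -0.13 and 0.11 with single libraries left out. ALAS1 lay between -0.30 (without LPS replicate 1) and 1.13 (without CON replicate 3). HMOX1, at 0.16, was -0.07 under total count scaling, -0.01 in limma-voom and 0.00 with the replicate block, and ran from -0.41 to 0.47 with single libraries left out.

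The count over all tested genes, 7 higher and 0 lower, was 8 and 1 under RLE scaling, 11 and 1 under total count scaling, 536 and 349 without the filter, 0 and 0 with 10 counts in every library, 275 and 141 in DESeq2, 2 and 0 in limma-voom, 203 and 152 in the likelihood ratio test, and 42 and 9 with the replicate number as a block. With single libraries left out it ran from 0 to 512 higher and from 0 to 470 lower, the highest being without LPS replicate 2. The causes were not tested. The block called no heme enzyme either (lowest adjusted p 0.409, CPOX, edgeR). With single libraries left out, the difference in log2 ratio ran from -0.17 to 1.68 for ALAS1 to FECH, from 0.27 to 2.18 for ALAS1 to ALAD and from -0.41 to -0.02 for BLVRA to BLVRB. Depth limits PPOX most, at 41 counts in its lowest library.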
